A study of Mus musculus with 18 samples.

Results

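The 10 genes described here set how much adenosine and how much cyclic AMP or cyclic GMP a T cell makes, senses and removes: Entpd1, Nt5e, Adora2a, Ptger4, Vipr1, Gucy1b1, Pde3b, Pde4b, Pde4d and Pde7a. Of these, 9 were measured, by 28 of the 34958 probe sets that the chip annotation assigns to exactly 1 gene, among 18194 genes in all. Adora2a, an adenosine receptor, was not analysed here. The genes were chosen for their function and with earlier results on these same arrays known. Each is represented by the probe set selected on measured values, as the one with the largest variance over all 18 arrays, so the calls given for these genes describe them and are no independent evidence. That variance ran from 0.106 for Pde4d to 1.92 for Pde3b. The chosen and the next probe set lay close for Pde4b (0.151 against 0.123) and Pde7a (0.252 against 0.186), and far apart for Vipr1 (1.07 against 0.0298). Pde3b has a single probe set of this kind.

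Regulatory T cells (Treg cells) are CD4 T cells that restrain immune responses and depend on the transcription factor Foxp3. Entpd1 (CD39) splits extracellular ATP and ADP to AMP, and Nt5e (CD73) splits AMP to adenosine, which signals through adenosine receptors to raise cyclic AMP in responding T cells. Ptger4, a receptor for prostaglandin, and Vipr1, one for vasoactive intestinal peptide, also raise cyclic AMP through the stimulatory G protein. Soluble guanylyl cyclase makes cyclic GMP when it binds nitric oxide, and phosphodiesterases break both messengers down. In mouse Treg cells Pde3b is a known gene repressed by Foxp3.

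All cells were CD4+ and freshly isolated from lymph nodes and spleen of B6;129 mice, with no treatment. Every mouse was heterozygous at Foxp3: one allele was wild type and carried a GFP reporter, and the other carried a human CD2 (hCD2) reporter together with the R397W, I363V or A384T substitution or with wild-type Foxp3. The hCD2+GFP- cells were sorted as R397W Treg (3 arrays), I363V Treg (3 arrays), A384T Treg (3 arrays) and WT hCD2 Treg cells (2 arrays, numbered 3 and 4). The GFP+hCD2- cells were sorted as WT GFP Treg cells of A384T mice (3 arrays) and WT GFP Treg cells of wild-type mice (2 arrays), and the cells with neither reporter in wild-type mice are conventional T cells (Tconv, 2 arrays). Each mutant therefore developed in an animal that also had wild-type Treg cells. The submitters describe duplicates or triplicates and name neither the animals behind each array nor their age, so p-values reflect only how far these arrays spread, which may be technical. The number of arrays limits the precision.

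All values are on the log2 scale, shifted by the authors so that the Tconv arrays average 0 at each probe set. A value is thus a difference from Tconv cells, absolute levels are lost, and levels of different genes cannot be set against each other. A gene was called at an adjusted p under 0.05 in limma's moderated test over all 18194 genes. Foxp3 RNA averaged 6.64 in R397W, 6.86 in I363V, 7.34 in A384T, 7.57 in WT GFP cells of A384T mice, 7.20 in WT hCD2 and 7.27 in WT GFP cells. The median of 7 Treg markers per array was 2.97 to 3.66 in R397W, 3.65 to 3.91 in I363V, 4.19 to 4.64 in A384T and 4.47 to 4.76 in WT hCD2 cells.

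Among wild-type Treg cells (WT hCD2 and WT GFP of wild-type mice, 4 arrays) against Tconv cells, 3 of the 9 genes were higher (Entpd1, Nt5e and Ptger4) and 4 were lower (Pde3b, Vipr1, Pde7a and Pde4d). Over all genes 3.81% were called higher and 2.03% lower. Pde4b and Gucy1b1 were not called, with changes of -0.73 ± 0.25 (SE, adjusted p = 0.135) and 1.01 ± 0.34 (adjusted p = 0.117). Other fits called them: with only the groups compared Pde4b passed (adjusted p = 0.0493), and with the array number as a block in WT GFP and Tconv arrays alone both passed (Pde4b -0.67, adjusted p = 0.00206; Gucy1b1 1.19, adjusted p = 6.06e-05), where 18.4% of all genes were called. Those arrays deviate together by number (r = 0.71 across genes), but with 2 arrays a group this rests on a single contrast. In none of the 9 genes did the wild-type Treg arrays overlap the Tconv arrays. The share of all genes without such overlap was not computed, so this is no result about the 9 genes. The median change of the 9 genes was -0.61, against -0.01 over all genes. It covers chosen genes that moved in both directions and is no test of the set. Leaving out Tconv array 1 left 5 of the 7 calls and leaving out Tconv array 2 left 4.

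Set against WT hCD2 Treg cells, which carry the same reporter, R397W cells had 3 of the 9 genes called higher and 1 lower, where 0.715% of all genes were called higher and 1.55% lower. I363V cells also had 3 called higher and 1 lower, against 0.231% and 0.682% of all genes. A384T cells had 1 called higher and 0 lower, against 0.137% and 0.143% of all genes. There 5 of the 9 had an unadjusted p under 0.05, as did 1469 of the 18194 genes. In R397W and I363V cells the called genes were the same: Vipr1, Gucy1b1 and Pde3b were higher and Entpd1 was lower. In A384T cells the call was Vipr1. The comparisons share their WT hCD2 arrays. The median change of the 9 genes was 0.46 in R397W, 0.67 in I363V and 0.15 in A384T cells, and that of all genes was -0.02 in each. The 9 genes were chosen with earlier results known and moved in both directions, so these medians are no test of the set.

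**Figure D1:**
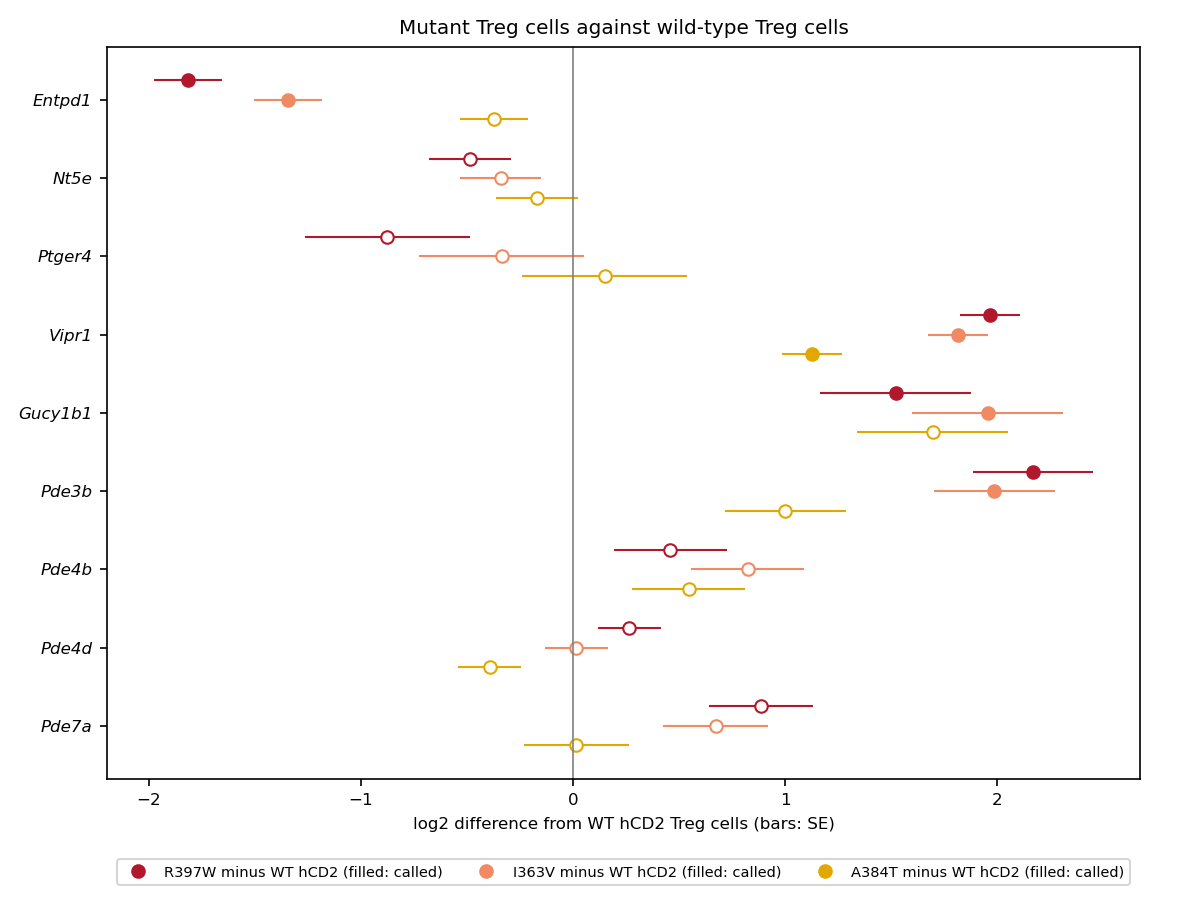
Log2 difference from WT hCD2 Treg cells (horizontal axis, bars give the SE of the limma fit) of the 9 measured genes in R397W, I363V and A384T Treg cells. Filled points are called genes. Entpd1 lies at -1.82, -1.34 and -0.37 in R397W, I363V and A384T cells, and Vipr1 at 1.97, 1.81 and 1.13.

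Entpd1, the enzyme that starts the path from extracellular ATP to adenosine, was the gene of the set that set the mutants furthest apart. It read 1.37, 1.22 and 1.34 in R397W arrays, 1.73, 1.73 and 1.89 in I363V arrays, and 2.86, 2.68 and 2.73 in A384T arrays. Wild-type Treg arrays read 2.98, 3.13 and 2.84 (WT GFP of A384T mice), 2.95 and 3.30 (WT hCD2), and 2.74 and 3.20 (WT GFP), and the Tconv arrays -0.21 and 0.21. The R397W, I363V and A384T arrays formed separate ranges in that rising order, all above Tconv. The highest A384T array overlapped the wild-type Treg arrays, which overlapped each other. Entpd1 was 8.28-fold higher in wild-type Treg than in Tconv cells (3.05 ± 0.15, adjusted p = 1.02e-08). It was 3.52-fold lower in R397W than in WT hCD2 cells (-1.82 ± 0.16, adjusted p = 3.57e-05) and 2.54-fold lower in I363V cells (-1.34 ± 0.16, adjusted p = 0.000772). In A384T cells the difference from WT hCD2 cells was -0.37 ± 0.16 (95% interval -0.71 to -0.03, adjusted p = 0.582). In bulk RNA, fewer cells that express a gene and less RNA of it per cell cannot be told apart. Both calls held when any single array was left out. Fitted with only the groups compared, the R397W call held (adjusted p = 0.0331) and the I363V call did not (adjusted p = 0.0606).

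Compared directly, Entpd1 was lower in R397W than in A384T cells (-1.44 ± 0.14, adjusted p = 5.51e-05) and lower in I363V than in A384T cells (-0.97 ± 0.14, adjusted p = 0.00256). Between R397W and I363V cells it differed by -0.47 ± 0.14 (95% interval -0.78 to -0.17), which did not pass over all genes (adjusted p = 0.297). It still exceeded Tconv cells 2.48-fold in R397W cells (1.31, adjusted p = 0.000246) and by 1.78 on the log2 scale in I363V cells (adjusted p = 1.07e-05). In R397W cells this rests on the chosen probe set: the others differed from Tconv cells by 0.77 (adjusted p = 0.0827 over all probe sets) and 0.01, the last with overlapping arrays, and with only the groups compared the chosen one missed the threshold (adjusted p = 0.067). In I363V cells 2 of the 3 were called. The other 2 Entpd1 probe sets followed the chosen one over the 18 arrays (Pearson r = 0.97 and 0.84). Against WT hCD2 cells all 3 were called lower in R397W and 2 of 3 in I363V cells. Against A384T cells all 3 were called lower in R397W cells. In I363V cells only the chosen one was, the others missing the threshold (adjusted p = 0.0906 and 0.0915 over all probe sets). Entpd1 is also made by myeloid and B cells. The per-array median of 6 myeloid markers was -0.92 to -0.62 in R397W, -0.24 to -0.19 in I363V, -0.90 to -0.02 in A384T and 0.01 to 0.04 in WT hCD2 arrays. That of 5 B cell markers was -0.09 to 0.16 in R397W, -0.54 to -0.43 in I363V, -0.48 to -0.12 in A384T and -0.22 to -0.16 in WT hCD2 arrays. The part of these cells in the Entpd1 values was not tested, and centred values cannot show whether such markers are absent.

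Nt5e, the enzyme of the next step, was called higher than in Tconv cells in wild-type, R397W, I363V and A384T Treg cells by its chosen probe set. It read 2.51, 2.12 and 2.07 in R397W, 2.50, 2.51 and 2.13 in I363V, and 2.53, 2.25 and 2.88 in A384T arrays. It read 2.70, 2.62 and 2.89 in WT GFP arrays of A384T mice, 2.93 and 2.52 in WT hCD2, 2.76 and 2.71 in WT GFP, and 0.04 and -0.04 in Tconv arrays. The R397W and I363V arrays lay below the 2 WT hCD2 arrays, and the A384T arrays spanned the lower of them. This order is nearly a tie: the highest R397W and I363V arrays read 2.5115 and 2.5091, and the lower WT hCD2 array 2.5150. Nt5e was 6.62-fold higher in wild-type Treg than in Tconv cells (2.73 ± 0.18, adjusted p = 2.29e-07), and was also called higher than Tconv in R397W (2.23), I363V (2.38) and A384T cells (2.55). Against WT hCD2 cells the differences were -0.49 (95% interval -0.90 to -0.07, adjusted p = 0.3) in R397W, -0.34 (-0.75 to 0.07, adjusted p = 0.69) in I363V and -0.17 (-0.58 to 0.24, adjusted p = 0.867) in A384T cells. None was called, and a missed threshold does not show equal levels. Of the 3 Nt5e probe sets, 2 were called higher than in Tconv cells in A384T and in wild-type Treg cells. In R397W and in I363V cells 1 was, the second probe set giving 0.36 (adjusted p = 0.606) and 0.75 (adjusted p = 0.0823). None was called in any mutant against WT hCD2 cells.

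To show the sequence at these genes, the 250 bases before the annotated start were taken from RefSeq (GRCm38.p6), where 7 of the 10 genes had an entry, in 11 windows. Pde3b, Pde7a and Adora2a were not in the table. The windows were searched on both strands for the cyclic AMP response element TGACGTCA, through which cyclic AMP acts on transcription, for its short form TGACG, the short element, which lies within it, and for the forkhead motif TGTTTAC. Of the 11 windows, 5 held the short element, in 4 genes, while 17.8% of all 32851 promoter windows held it. Several windows belong to the same gene, so they are not independent, and the difference from that share was not tested. A match to so short a motif does not show that the site works. The full element (1.55% of all windows) and the forkhead motif (3.17%) were in 0 of the 11. Capitals mark the short element, read here as CGTCA on the strand shown. Entpd1 has 2 annotated starts on the plus strand, at chr19:40612116-40612365 and chr19:40659520-40659769, with the match beginning 135 and 183 bases upstream of the start. The Nt5e window, chr9:88327359-88327608 on the plus strand, held no match.
Entpd1, upstream start: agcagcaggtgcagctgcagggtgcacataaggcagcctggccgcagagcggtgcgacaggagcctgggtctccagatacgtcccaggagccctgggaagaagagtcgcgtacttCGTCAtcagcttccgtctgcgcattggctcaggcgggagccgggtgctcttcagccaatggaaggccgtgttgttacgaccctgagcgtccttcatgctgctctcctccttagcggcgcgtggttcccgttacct
Entpd1, downstream start: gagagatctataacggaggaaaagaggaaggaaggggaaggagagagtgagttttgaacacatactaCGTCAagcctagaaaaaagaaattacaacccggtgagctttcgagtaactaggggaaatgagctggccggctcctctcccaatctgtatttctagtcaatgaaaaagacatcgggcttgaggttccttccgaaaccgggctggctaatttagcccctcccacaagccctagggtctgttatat
Nt5e: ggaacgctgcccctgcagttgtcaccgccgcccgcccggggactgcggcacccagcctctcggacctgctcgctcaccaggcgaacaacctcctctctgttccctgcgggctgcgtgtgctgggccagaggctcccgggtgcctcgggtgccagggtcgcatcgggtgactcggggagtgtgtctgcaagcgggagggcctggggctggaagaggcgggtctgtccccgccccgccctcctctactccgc

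Vipr1, a receptor for vasoactive intestinal peptide that raises cyclic AMP, lay below Tconv cells in all Treg groups, and less far below in every mutant. It read -1.17, -0.87 and -0.94 in R397W, -1.12, -1.26 and -1.06 in I363V, and -1.82, -1.87 and -1.82 in A384T arrays. It read -2.97, -2.79 and -3.03 in WT GFP arrays of A384T mice, -3.14 and -2.78 in WT hCD2, -2.91 and -2.58 in WT GFP, and 0.11 and -0.11 in Tconv arrays. The A384T arrays formed a tight step between the wild-type Treg arrays and those of R397W and I363V, which overlapped each other, and no mutant array reached Tconv. Vipr1 was 7.22-fold lower in wild-type Treg than in Tconv cells (-2.85 ± 0.13, adjusted p = 5.92e-09). Against WT hCD2 cells it was 3.91-fold higher in R397W (1.97 ± 0.14, adjusted p = 9.8e-06), 3.52-fold higher in I363V (1.81 ± 0.14, adjusted p = 2.85e-05) and 2.18-fold higher in A384T cells (1.13 ± 0.14, adjusted p = 0.00232). It was also higher in R397W than in A384T cells (0.84 ± 0.13, adjusted p = 0.00168) and in I363V than in A384T cells (0.69 ± 0.13, adjusted p = 0.0128). The calls against WT hCD2 cells held when any single array was left out. The I363V against A384T call was lost without A384T array 1 or 2 or I363V array 1 or 3 (adjusted p = 0.0503, 0.0674, 0.0573 and 0.068).

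The second Vipr1 probe set did not follow the first (r = 0.08 over 18 arrays) and showed -0.14 in wild-type Treg against Tconv cells, with -0.13, -0.25 and -0.20 in R397W, I363V and A384T against WT hCD2 cells. Averaged over both probe sets, Vipr1 was called in R397W and I363V cells, and its A384T difference was 0.46 (adjusted p = 0.123). With only the groups compared in the fit the A384T call was also lost (adjusted p = 0.0839). The Vipr1 window, chr9:121642466-121642715 on the plus strand, is shown because its short element begins 13 bases upstream of the start.
Vipr1: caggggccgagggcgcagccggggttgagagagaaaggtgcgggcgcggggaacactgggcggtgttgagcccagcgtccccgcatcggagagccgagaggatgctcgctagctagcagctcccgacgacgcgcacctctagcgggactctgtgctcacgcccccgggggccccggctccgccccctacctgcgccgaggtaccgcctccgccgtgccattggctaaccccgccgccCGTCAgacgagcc

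Ptger4, a prostaglandin receptor that raises cyclic AMP, was higher in wild-type Treg than in Tconv cells (1.70 ± 0.37, 3.26-fold, adjusted p = 0.0109), and both of its probe sets were called. The call was lost without Tconv array 2 (adjusted p = 0.153). Its R397W arrays spread from array to array: they read 1.85, -0.08 and 0.63. The I363V arrays read 1.40, 1.20 and 1.42 and the A384T arrays 1.63, 1.61 and 2.23, against 1.77, 2.04 and 2.21 in WT GFP arrays of A384T mice, 1.95 and 1.40 in WT hCD2, 1.75 and 1.71 in WT GFP, and 0.19 and -0.19 in Tconv arrays. R397W array 1 lay among the wild-type Treg arrays, and array 2 among the Tconv arrays. The second probe set did not share this order: its R397W arrays read 0.62, 0.56 and 0.04, and array 3 was the one among the Tconv arrays (-0.19 and 0.19). Against WT hCD2 cells the change was -0.88 in R397W (95% interval -1.71 to -0.04, adjusted p = 0.389), -0.34 in I363V (adjusted p = 0.897) and 0.15 in A384T cells (adjusted p = 0.951). Without R397W array 1 the R397W difference was -1.40 against WT hCD2 cells (adjusted p = 0.0163) and -1.55 against A384T cells (adjusted p = 0.00406).

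Gucy1b1 codes for the beta subunit of soluble guanylyl cyclase. Alone in the set, it read higher in every mutant array than in the Tconv arrays and the Treg arrays of wild-type mice. It read 2.62, 2.37 and 2.07 in R397W, 3.03, 3.29 and 2.04 in I363V, and 2.01, 2.47 and 3.11 in A384T arrays. It read 1.62, 2.07 and 2.04 in WT GFP arrays of A384T mice, 1.11 and 0.56 in WT hCD2, 0.90 and 1.47 in WT GFP, and -0.05 and 0.05 in Tconv arrays. All 9 mutant arrays exceeded all 4 arrays of wild-type mice, the 3 mutants overlapped each other, and WT GFP cells of A384T mice lay in between, overlapping A384T and I363V arrays. Against WT hCD2 cells the increase was 2.87-fold in R397W (1.52 ± 0.36, adjusted p = 0.0374) and 3.88-fold in I363V cells (1.95 ± 0.36, adjusted p = 0.0161). In A384T cells it was 1.70 ± 0.36 (95% interval 0.93 to 2.46, adjusted p = 0.0737) and was not called. Against Tconv cells Gucy1b1 was 5.11-fold higher in R397W, 6.90-fold higher in I363V and 5.77-fold higher in A384T cells, each called.

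The Gucy1b1 calls against WT hCD2 cells rest on few arrays. The R397W call was lost without WT hCD2 array 3 or 4 (adjusted p = 0.0999 and 0.289) and without R397W array 1 or 2 (adjusted p = 0.116 and 0.0819). The I363V call did not survive leaving out WT hCD2 array 4 (adjusted p = 0.276) or I363V array 1 or 2 (adjusted p = 0.0653 and 0.056). With only the groups compared in the fit, neither held (adjusted p = 0.112 in R397W and 0.234 in I363V). The second Gucy1b1 probe set (r = 0.77 with the first) differed from WT hCD2 cells by 0.44 in R397W, 0.27 in I363V and 0.47 in A384T cells, none called. Gucy1a1, which codes for the alpha subunit that pairs with it, averaged 2.94 in R397W, 2.60 in I363V, 2.98 in A384T, 2.68 in WT GFP cells of A384T mice, 2.40 in WT hCD2 and 2.35 in WT GFP cells. Thus the partner subunit was higher in wild-type Treg than in Tconv cells (2.37 ± 0.23, adjusted p = 7.41e-06). It was not called in any mutant against WT hCD2 cells, which does not show equal levels. Its R397W arrays (2.61 to 3.15) and A384T arrays (2.67 to 3.29) lay above the WT hCD2 arrays (2.35 and 2.44). The I363V arrays (2.29 to 2.82) lay on both sides of them. The Gucy1b1 window, chr3:82074712-82074961 on the minus strand, held 1 short element, beginning 28 bases upstream of the start.
Gucy1b1: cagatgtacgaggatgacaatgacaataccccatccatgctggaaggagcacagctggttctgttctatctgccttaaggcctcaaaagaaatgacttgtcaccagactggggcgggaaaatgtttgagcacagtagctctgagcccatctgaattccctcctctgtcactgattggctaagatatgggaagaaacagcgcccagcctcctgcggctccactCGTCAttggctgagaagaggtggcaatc

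**Figure D2:**
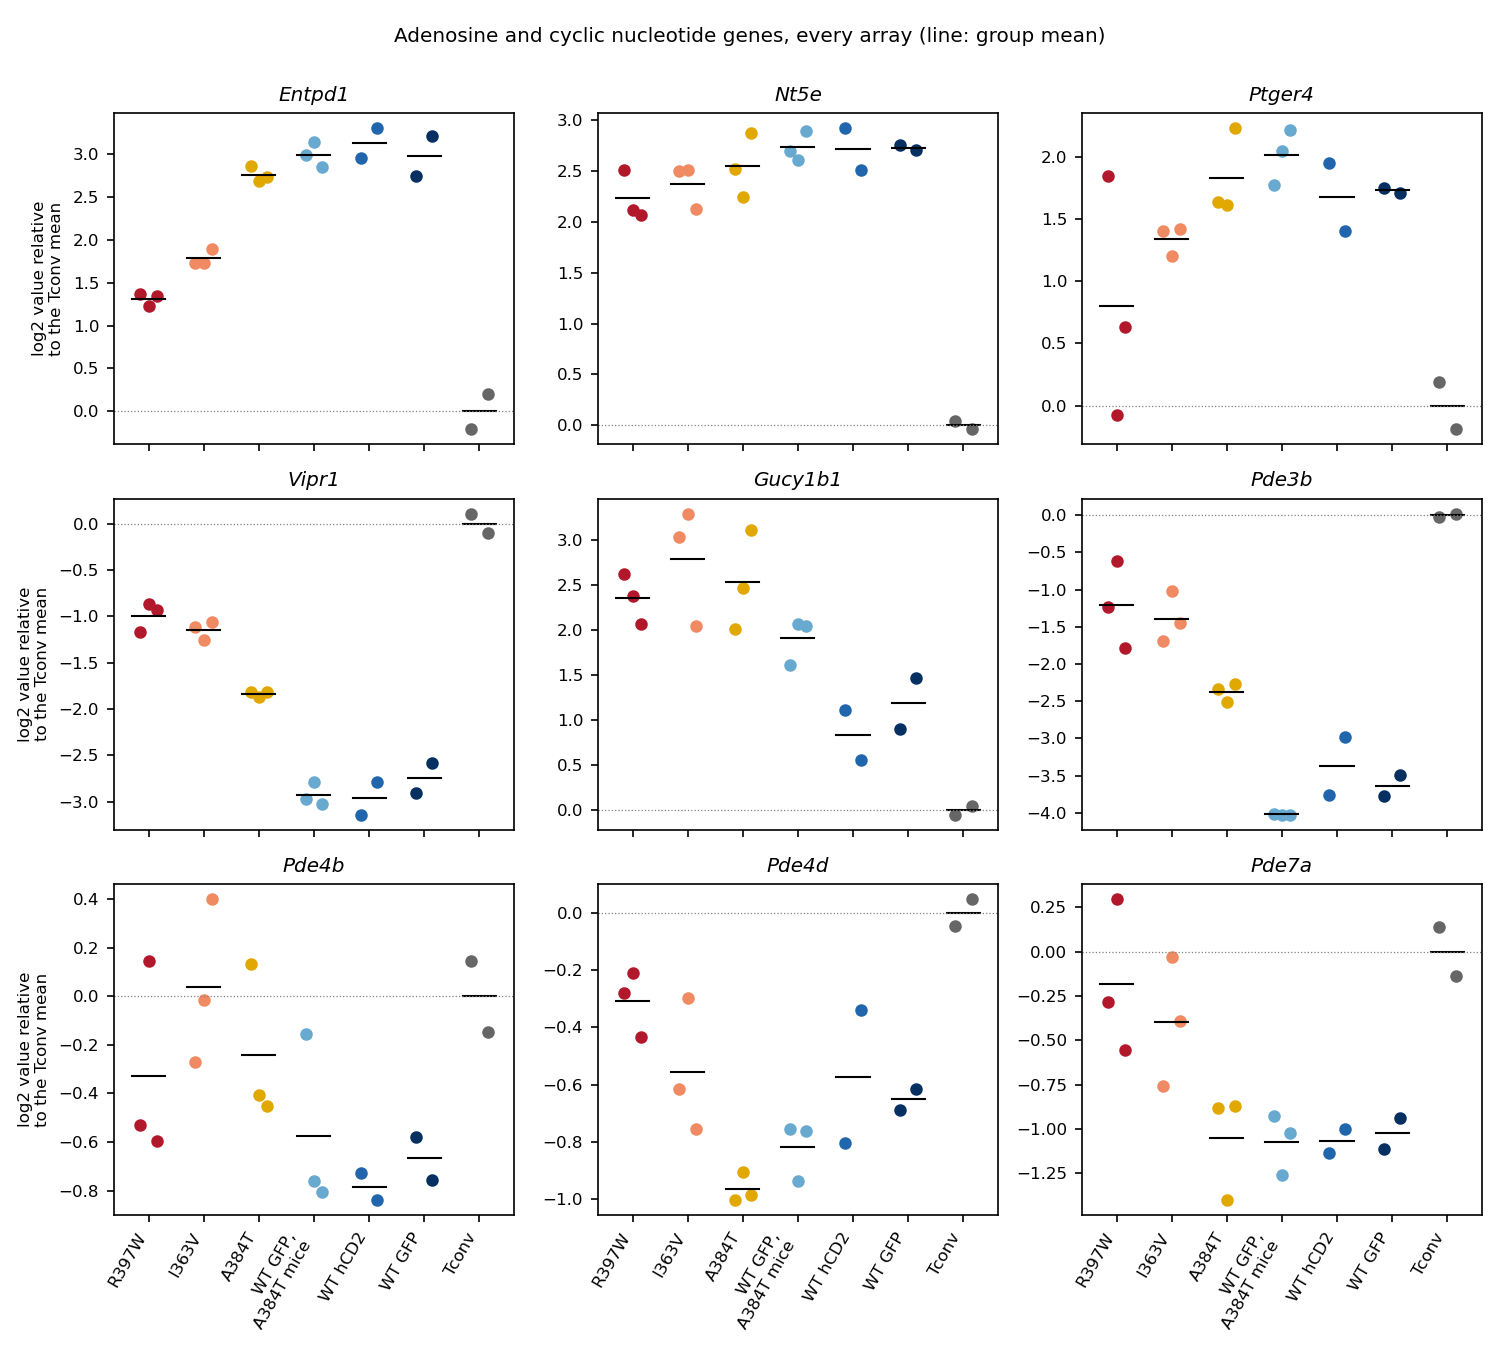
Log2 value relative to the Tconv mean (vertical axis) of each of the 9 measured genes in every array, 1 panel per gene, with groups along the horizontal axis and bars at the group means. In the Gucy1b1 panel the WT GFP arrays of A384T mice (1.62 to 2.07) stand above the 4 arrays of wild-type mice (0.56 to 1.47), and in the Ptger4 panel the R397W arrays spread from -0.08 to 1.85.

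Pde3b, a phosphodiesterase that hydrolyses both cyclic AMP and cyclic GMP and is inhibited by cyclic GMP, had the widest range of the set. It read -1.23, -0.61 and -1.78 in R397W, -1.69, -1.02 and -1.45 in I363V, and -2.34, -2.51 and -2.27 in A384T arrays. It read -4.01, -4.03 and -4.02 in WT GFP arrays of A384T mice, -3.76 and -2.99 in WT hCD2, -3.78 and -3.49 in WT GFP, and -0.02 and 0.02 in Tconv arrays. As with Vipr1, the A384T arrays lay between the wild-type Treg arrays and the arrays of the other 2 mutants, with no overlap on either side. Pde3b was 11.3-fold lower in wild-type Treg than in Tconv cells (-3.50 ± 0.27, adjusted p = 9.97e-07). It was 4.49-fold higher in R397W than in WT hCD2 cells (2.17 ± 0.28, adjusted p = 0.000824) and 3.96-fold higher in I363V cells (1.99 ± 0.28, adjusted p = 0.00287). Leaving out WT hCD2 array 3 ended the I363V call (1.60, adjusted p = 0.054). With only the groups compared in the fit, neither call held (adjusted p = 0.153 in R397W and 0.114 in I363V). The A384T difference from WT hCD2 cells was 1.001 ± 0.28 (adjusted p = 0.27). Between mutants, Pde3b was higher in R397W than in A384T cells (1.17 ± 0.25, adjusted p = 0.0221). This call was lost without any A384T array or without R397W array 1 or 2 (adjusted p from 0.0514 to 0.0981).

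The 3 phosphodiesterases that hydrolyse only cyclic AMP varied less. Pde7a was lower in wild-type Treg than in Tconv cells (-1.05 ± 0.23, 2.07-fold, adjusted p = 0.0141), a call lost without either Tconv array (adjusted p = 0.154 without array 1 and 0.0554 without array 2). Its arrays read -0.29, 0.30 and -0.56 in R397W, -0.76, -0.03 and -0.39 in I363V and -0.88, -1.40 and -0.87 in A384T cells, against -1.13 and -1.002 in WT hCD2 and 0.14 and -0.14 in Tconv cells. The R397W and I363V arrays lay above WT hCD2, whereas the A384T arrays surrounded it. Against WT hCD2 cells the change was 0.89 in R397W (95% interval 0.36 to 1.42, adjusted p = 0.0926), 0.67 in I363V (adjusted p = 0.353) and 0.02 in A384T cells (adjusted p = 0.993). Without R397W array 3 the R397W difference was called (1.07, adjusted p = 0.0423). R397W exceeded A384T cells by 0.87 ± 0.22 (adjusted p = 0.048), which was lost without any A384T array or without R397W array 1 or 2 (adjusted p from 0.0786 to 0.217), with all probe sets tested (adjusted p = 0.0527) and with each array's median subtracted (adjusted p = 0.0613). All 7 Pde7a probe sets were below 0 in wild-type Treg cells, and 3 of them were called.

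Pde4d was also lower in wild-type Treg than in Tconv cells (-0.61 ± 0.14, 1.53-fold, adjusted p = 0.0163). The call was lost without Tconv array 1 or 2 or WT hCD2 array 3 (adjusted p = 0.0763, 0.172 and 0.0519), and with only the groups compared (adjusted p = 0.124). Its arrays read -0.28, -0.21 and -0.43 in R397W, -0.61, -0.30 and -0.76 in I363V and -1.0035, -0.90 and -0.99 in A384T cells, against -0.80 and -0.34 in WT hCD2 cells. No mutant was called against WT hCD2 cells, and R397W arrays lay above all A384T arrays (0.66 ± 0.13, adjusted p = 0.0135). That call was lost without A384T array 1 or 3 or R397W array 2 (adjusted p = 0.0525, 0.0545 and 0.0517). The second Pde4d probe set did not follow the chosen one (r = 0.23). It showed 0.01 in wild-type Treg against Tconv cells and 0.05 in R397W against A384T cells, neither called.

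Pde4b read -0.53, 0.15 and -0.60 in R397W, -0.27, -0.02 and 0.40 in I363V and 0.14, -0.41 and -0.45 in A384T arrays, against -0.73 and -0.84 in WT hCD2 and 0.15 and -0.15 in Tconv arrays. Every mutant array lay above the WT hCD2 arrays, but not above all wild-type Treg arrays. WT GFP arrays read -0.58 and -0.76. WT GFP arrays of A384T mice read -0.15, -0.76 and -0.81, and each mutant overlapped them. The chosen probe set was called in no comparison with WT hCD2 or Tconv cells (adjusted p = 0.589 in R397W, 0.252 in I363V and 0.639 in A384T against WT hCD2). Of its 6 probe sets, 1 that was not chosen was called lower in wild-type Treg cells (-0.68) and higher in I363V than in WT hCD2 cells (0.88).

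**Figure D3:**
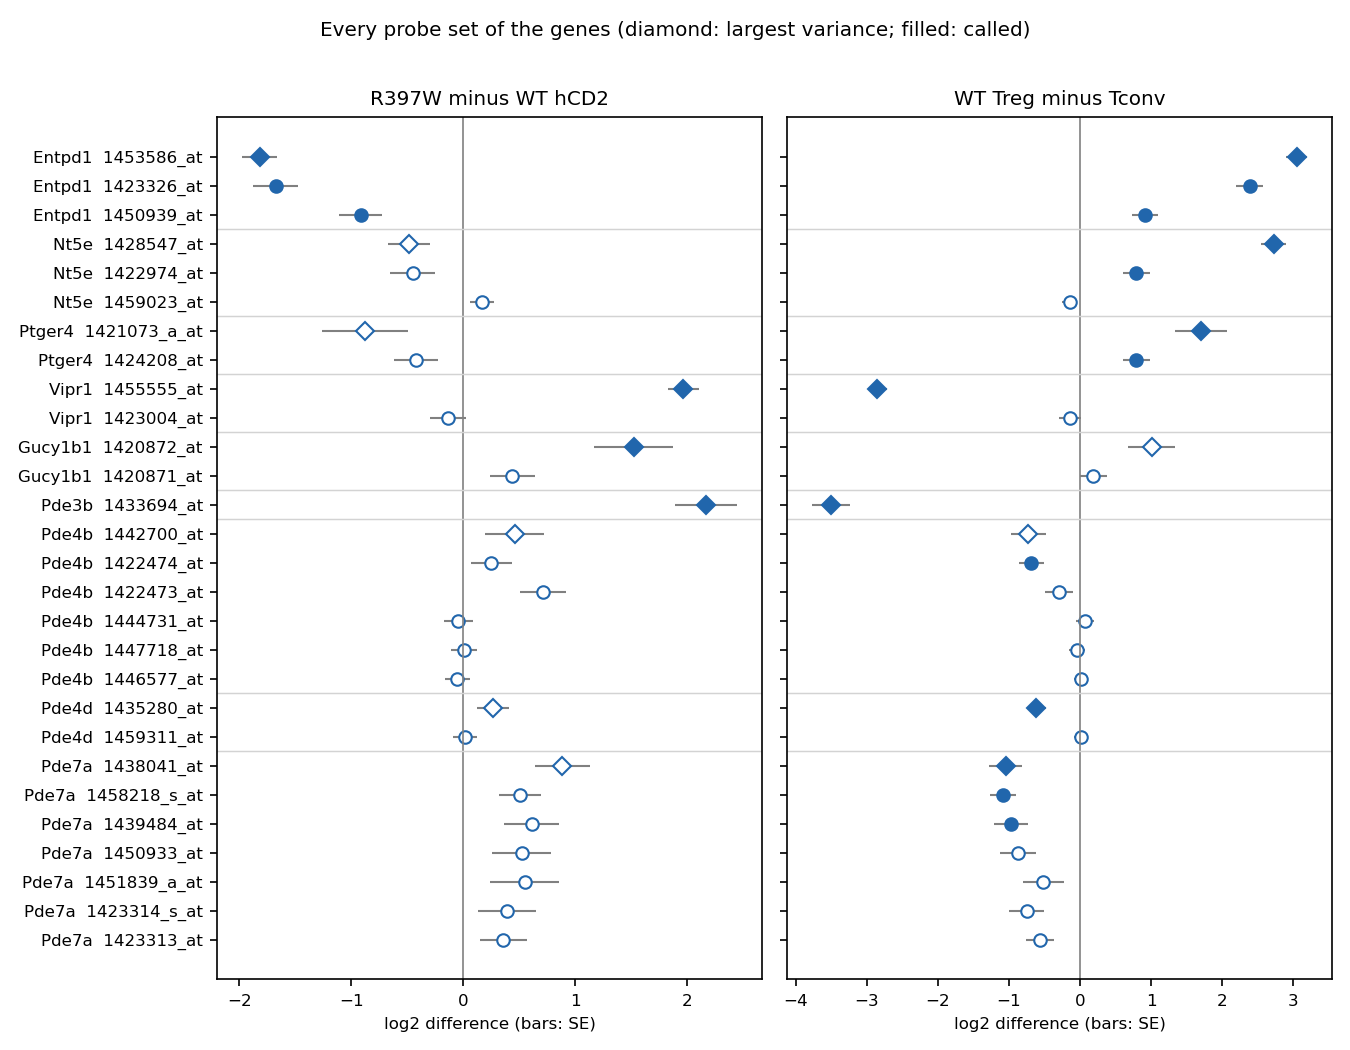
Log2 difference at every probe set assigned to 1 of the 9 genes, for R397W against WT hCD2 Treg cells and for wild-type Treg against Tconv cells, with chosen probe sets marked. All 3 Entpd1 probe sets are called in both comparisons, while the second Vipr1 probe set lies at -0.13 and -0.14.

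The A384T mice carry mutant and wild-type Treg cells side by side, so both were sorted from mice of 1 genotype. Of the 9 genes, 2 were called higher in A384T than in WT GFP cells of A384T mice and 0 lower, where 0.522% of all genes were called in either direction. These were Pde3b (1.65 ± 0.25, 3.13-fold, adjusted p = 0.00671) and Vipr1 (1.10 ± 0.13, 2.14-fold, adjusted p = 0.000812), and in both the arrays did not overlap. Gucy1b1 differed by 0.62 ± 0.32 and Entpd1 by -0.23, neither called. With the array number as a block, 4 of the 9 were called (Pde3b, Vipr1, Gucy1b1 with adjusted p = 0.0281 and Pde4b with adjusted p = 0.0405), where 5.23% of all genes were. The reporter differs between these cells as well as the allele. The wild-type GFP cells of A384T mice and of wild-type mice, which share their reporter, differed in 0 of the 9 genes and in 0% of all genes by limma, with 474 genes and 0 of the 9 at an unadjusted p under 0.05. Gucy1b1 differed there by 0.72 ± 0.36 (95% interval -0.04 to 1.48), with arrays that did not overlap. The arrays of Pde3b, Pde4d and Ptger4 did not overlap there either, and the share over all genes was not computed.

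Between mutants, R397W differed from A384T cells in 5 of the 9 genes, against 3.13% of all genes: Pde3b, Pde4d, Pde7a and Vipr1 were higher and Entpd1 was lower. I363V differed from A384T cells in Entpd1 and Vipr1, against 1.14% of all genes. R397W and I363V cells differed in 0 of the 9 genes, against 0.0824% of all genes by limma. At an unadjusted p under 0.05 they differed in 1 of the 9, Entpd1, and in 1549 genes. Against Tconv cells, A384T cells were called in 8 of the 9 genes (6.52% of all genes), the exception being Pde4b. I363V cells were called in 5 of the 9 genes (2.5% of all genes) and R397W cells in 5 (2.02% of all genes): Entpd1, Nt5e and Gucy1b1 were higher and Pde3b and Vipr1 were lower in each. With only the groups compared, R397W cells lost the calls of Entpd1, Pde3b and Vipr1 (adjusted p = 0.067, 0.455 and 0.127). I363V cells lost that of Pde3b (adjusted p = 0.0673) and gained that of Ptger4 (adjusted p = 0.0308). Ptger4 was 1.34 (adjusted p = 0.101) in I363V and 0.80 (adjusted p = 0.498) in R397W against Tconv cells. Pde3b was lower than in Tconv cells in R397W cells (-1.21, adjusted p = 0.0415) and lost this call without either Tconv array or R397W array 1 or 3 (adjusted p from 0.109 to 0.259). In I363V cells it was -1.39 (adjusted p = 0.0149), lost without either Tconv array or I363V array 1 (adjusted p from 0.0709 to 0.138), and without I363V array 2 Pde4d was called as well (-0.68, adjusted p = 0.0247). In A384T cells the call of Pde7a was lost without either Tconv array or A384T array 2 (adjusted p = 0.13, 0.0656 and 0.0778), and that of Ptger4 without Tconv array 2 (adjusted p = 0.123).

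Other genes of the same pathways were taken as 6 lists with 108 measured genes: extracellular purine handling, receptors coupled to cyclic AMP, G proteins and adenylyl cyclases, guanylyl cyclases and cyclic GMP effectors, other phosphodiesterases, and cyclic AMP effectors. In wild-type Treg against Tconv cells 8 of the 108 were called higher (7.41%, against 3.81% of all genes) and 5 lower (4.63%, against 2.03%). They included the prostaglandin receptor Ptger2 (2.79 ± 0.24), Gucy1a1 and the ATP-gated channel P2rx7 (2.17 ± 0.32) among the higher, and the receptor Calcrl (-1.19 ± 0.19), the protein kinase A inhibitor Pkib (-0.94 ± 0.19) and the kinase A regulatory subunit Prkar2a (-0.73 ± 0.17) among the lower. None of the 17 G protein and adenylyl cyclase genes and none of the other 19 phosphodiesterase genes was called there.

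Against WT hCD2 cells 2 of the 108 were called in R397W cells, both lower (1.85%, beside 1.55% of all genes lower and 0.715% higher). In I363V and in A384T cells 0 of the 108 were called, where the shares over all genes given above were also under 1%. These counts lie near the shares over all genes. The first was Pde2a, a phosphodiesterase stimulated by cyclic GMP, at -1.15 ± 0.24 (adjusted p = 0.0217). It read -0.52, -0.67 and -1.29 in R397W and -0.51, -0.47 and -0.54 in A384T arrays, against 0.37 and 0.28 in WT hCD2 arrays and 0.93, 1.002 and 0.67 in WT GFP arrays of A384T mice. All arrays of both mutants lay below the wild-type arrays, and Pde2a was called lower in A384T than in WT GFP cells of A384T mice (-1.38 ± 0.22, adjusted p = 0.00759). In I363V arrays it read 0.13, 0.55 and -0.40, on both sides of the WT hCD2 arrays. The second was Prkar2a, at -0.77 ± 0.18 (adjusted p = 0.0316), with R397W arrays from -1.69 to -1.24 and WT hCD2 arrays from -0.76 to -0.69.

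Against Tconv cells the lists gave 3 higher and 4 lower genes in R397W cells, or 2.78% and 3.7%, where 1.06% and 0.967% of all genes were called. They gave 5 and 4 in I363V cells (4.63% and 3.7%, against 1.48% and 1.02% of all genes). They gave 8 and 7 in A384T cells (7.41% and 6.48%, against 4.14% and 2.38% of all genes). The count over all genes, too, was largest in A384T cells. In R397W cells the leading genes were Gucy1a1 (2.94), Ptger2 (2.50) and the prostaglandin receptor Ptger3 (2.08), with Prkar2a (-1.50), Pkib (-1.05) and Calcrl (-0.85) lower. In I363V cells they were Gucy1a1 (2.60), Ptger2 (2.26) and Ptger3 (1.94), with Pkib (-1.21), Calcrl (-1.18) and Prkar2a (-1.02) lower. In A384T cells they were Ptger2 (3.16), Gucy1a1 (2.98) and the kinase A subunit Prkar1b (1.93), with Calcrl (-1.31), adenosine kinase Adk (-1.05) and Prkar2a (-0.96) lower.

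**Figure D4:**
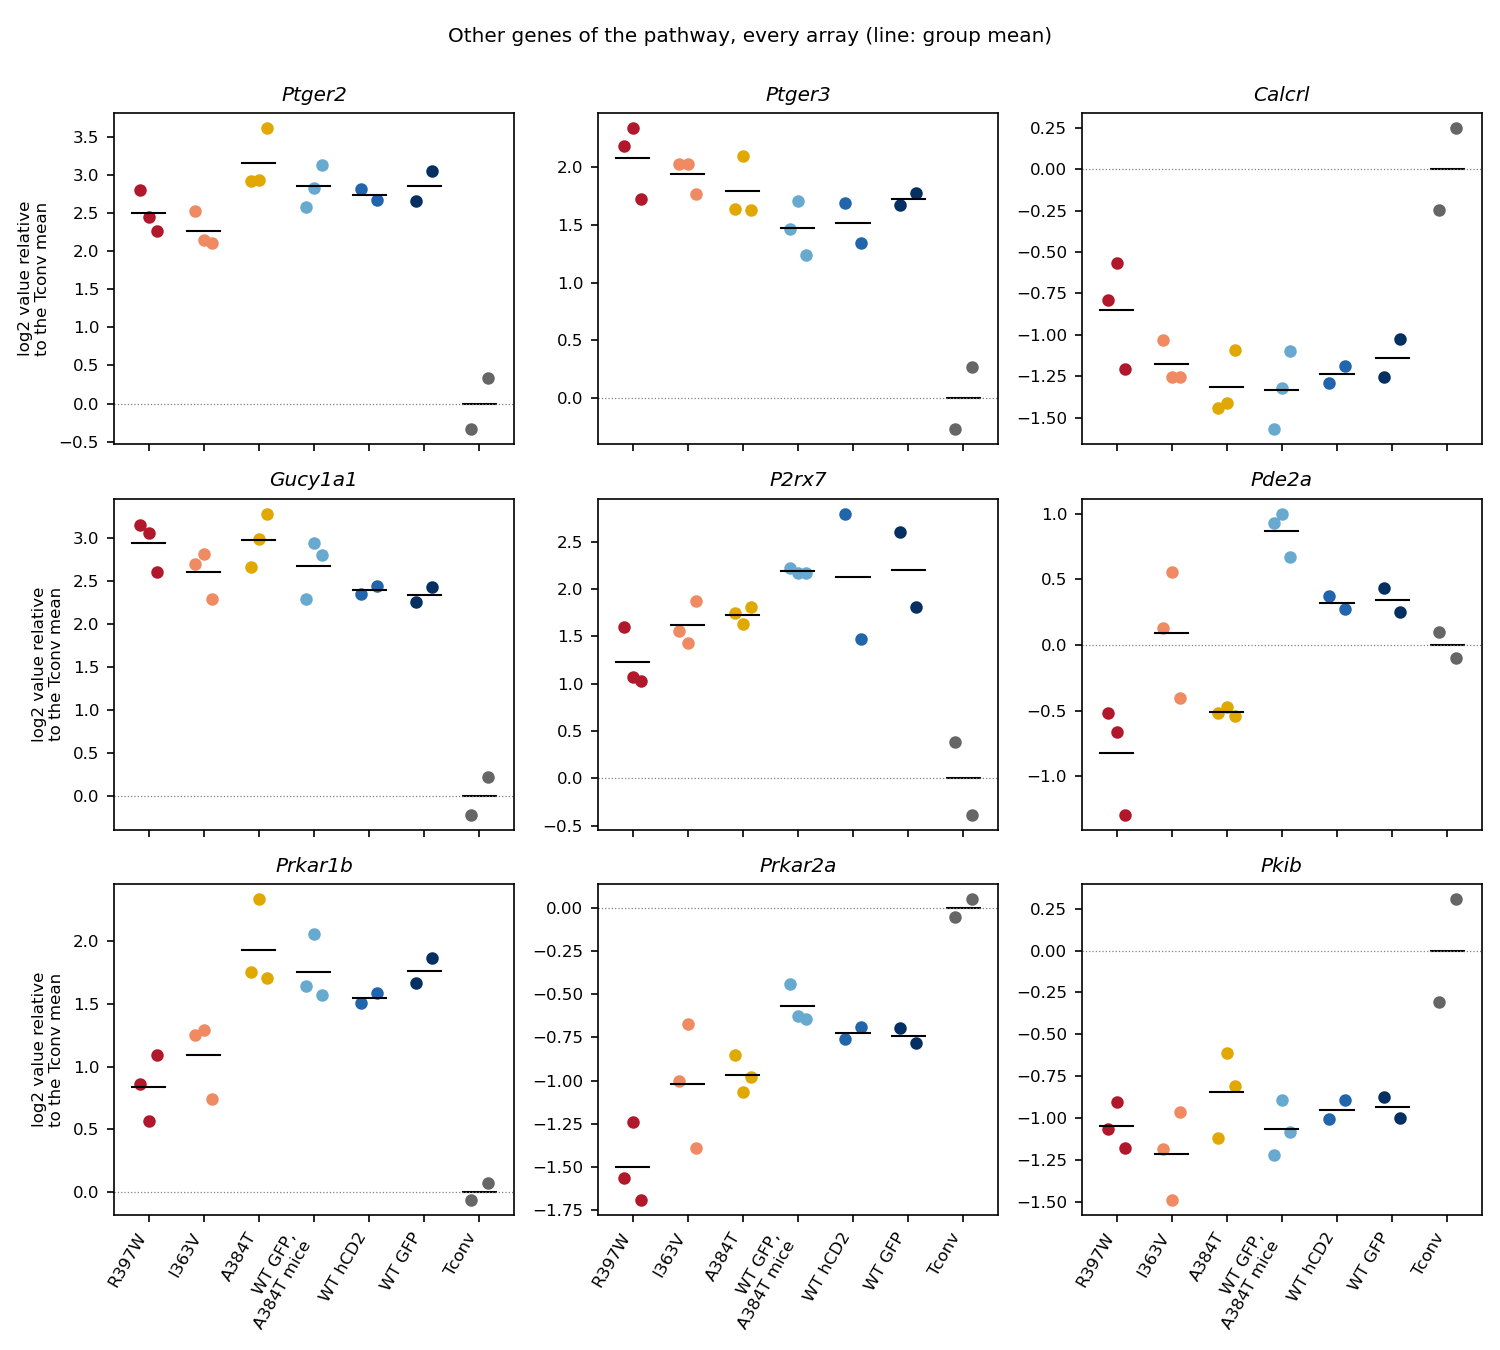
Log2 values relative to the Tconv mean (vertical axis) of pathway genes outside the 10, by array and group. Gucy1a1 has group means of 2.35 to 2.98 in the Treg groups, and Pde2a has means of -0.83 in R397W, 0.09 in I363V, -0.51 in A384T and 0.32 in WT hCD2 cells.

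Among themselves the genes fell into patterns, described here by Pearson's r over the 18 arrays, which share their groups, the Tconv baseline and normalization. Entpd1 ran opposite to Vipr1 (r = -0.93) and to Pde3b (-0.90) and with Nt5e (0.84), while Pde3b and Vipr1 ran together (0.971). Gucy1b1 had an r of 0.22 with Entpd1. Among all genes, those most like Entpd1 were Itgae (0.976), Tiam1 (0.972) and Cd83 (0.972). For Nt5e they were Ikzf2 (0.974), Mdfic (0.972) and Foxp3 itself (0.968). Pde3b was most like Vipr1, Tdrp (0.964) and Lypd6b (0.950), and Vipr1 was most like Tdrp (0.975), Pde3b and Lypd6b (0.966), so each of this pair had the same 2 other genes nearest. For Gucy1b1 they were Cyth3 (0.886), Sertad1 (0.884) and Dsp (0.872), for Ptger4 Glipr2, Rnf19b and Taf11, for Pde7a Themis, Slc20a1 and Sgk1, for Pde4d Fasl, Cdyl2 and Cdt1, and for Pde4b Gm34006, Zmat2 and Epc1.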

How the data were processed

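RNA of 18 sorted T cell samples in 7 groups was measured on Affymetrix arrays with 45101 probe sets. The deposited values are on the log2 scale, by the convention of RMA, which the submitters' processing notes name and whose version is not given in the sources used here. The authors centred them on the Tconv arrays, as the files show: the largest absolute sum of these arrays was 1.0e-06, so levels and background cannot be read. No array was left out and no filter was applied.

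The chip annotation gave 34958 probe sets with 1 gene, 932 with several and 9211 with none. Each gene was represented by its probe set of largest variance. The members and lists were chosen with earlier results of these data known. A joint fit of all groups used limma 3.58.1 (R 4.3.3; 11 residual and 3.3 prior degrees of freedom), with two-sided moderated tests, intervals of 95% and Benjamini-Hochberg adjustment over 18194 genes. The code was tested on simulated data. Tables and plots used Python 3.11.15, pandas 2.3.3, numpy 2.4.6 and matplotlib 3.10.9.

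Named were the 9 measured genes in every comparison, up to 3 called pathway genes per direction in comparisons with WT hCD2 or Tconv cells, and the 3 genes most like each measured gene. Other genes named, Pde2a in A384T mice among them, were chosen after their values were seen. Array numbers were checked for pairing through the deviations from group means across genes. For A384T and WT GFP cells of A384T mice arrays of equal number gave 0.69, 0.65 and 0.58, so the data, not the labels, pair these arrays. Arrays of unequal number gave -0.45 to -0.16. These negative values add no support, since deviations from a group mean cancel out within the group. Shared animals and a shared batch cannot be told apart here. Alternatives were all probe sets, the mean over probe sets, median subtraction, only the groups compared, each array left out and the array number as a block.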

Additional observations from a re-analysis of the deposited data

Results flagged for a closer look

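Several genes differed between mutants by limma's test of the difference itself. Between I363V and A384T Treg cells, Entpd1 differed by -0.97 (adjusted p = 0.00256) and Vipr1 by 0.69 (adjusted p = 0.0128). Between R397W and A384T Treg cells, Entpd1 differed by -1.44 (adjusted p = 5.51e-05), Vipr1 by 0.84 (adjusted p = 0.00168), Pde4d by 0.66 (adjusted p = 0.0135), Pde3b by 1.17 (adjusted p = 0.0221) and Pde7a by 0.87 (adjusted p = 0.048). These are differences of log2 values, and in each the arrays of the mutants did not overlap. The genes were flagged because they were called, and the share of all genes without overlap was not computed. As given above, the calls of Pde3b, Pde4d and Pde7a, and of Vipr1 between I363V and A384T cells, were lost without certain single arrays. Over all probe sets, 0 of the 7 Pde7a and 1 of the 2 Pde4d probe sets were called between R397W and A384T cells.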

How the results depend on the processing

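No alternative reversed a called difference. Of 43 called differences, 42 kept their call with all probe sets tested, 41 with each array's median subtracted, 38 with the mean of a gene's probe sets and 30 with only the groups compared, and 189 of 231 kept it with 1 array left out. Called counts among the 9 genes that moved by more than 1.5 times, and the ranges with 1 array left out, were as follows. With only the groups compared they were 0 in A384T, 1 in I363V and 2 in R397W against WT hCD2 cells, 3 in R397W against A384T and 2 in R397W against Tconv cells. With the mean of probe sets they were 0 in A384T against WT hCD2, 1 in I363V against A384T and 3 in R397W against A384T cells; smaller moves were to 6 in wild-type Treg against Tconv (Pde4d lost) and to 5 in I363V against WT hCD2 cells (Pde4b gained). With 1 array left out they ran from 4 to 7 in wild-type Treg against Tconv, 1 to 2 in I363V against A384T 2 to 5 in R397W against A384T, 3 to 4 in I363V and 3 to 5 in R397W against WT hCD2, and 6 to 8 in A384T, 4 to 6 in I363V and 4 to 5 in R397W against Tconv cells. With the replicate number as a block they were 4 in A384T against WT GFP cells of A384T mice (5.23% of all genes called), where the numbers pair the arrays. Same-numbered Tconv and WT GFP arrays also deviated together (r = 0.71), but with 2 pairs, too few for that rule, and the block gave 9 there (18.4% of all genes). In the other comparisons the numbers do not meet the rule. The block gave 0 in I363V against A384T (0.159% of all genes), 1 in R397W against A384T (0.264%), 2 in I363V against Tconv (0.308%), 2 in R397W against Tconv (0.231%) and 6 in A384T against Tconv cells (2.12%; Pde4d and Pde7a lost, adjusted p = 0.0768 and 0.0542). No paired analysis was possible because the mutants and WT hCD2 cells share only 1 number. The fits with fewer arrays have fewer degrees of freedom; other causes were not tested.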
